A study of Mus musculus with 33 samples.

Results

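The DNA glycosylases open base excision repair (BER), and the transcripts of 10 of them were followed here out of the 37991 genes counted: Neil1, Neil2, Neil3, Tdg, Ogg1, Nthl1, Mutyh, Ung, Smug1 and Mbd4. They were taken by name, not by their values, and all 10 passed the filter on low counts in every comparison. The 33 RNA-seq libraries came from mouse E14TG2a embryonic stem cells (mESCs) carrying CRISPR/Cas9 constructs, at 3 stages: mESCs, embryoid bodies (EBs) at day 8, and EBs that received 5 µM retinoic acid (RA) from day 4, called EBs + RA. Control clones #1, #4 and #7 had received the pX330 plasmid without a guide, Neil1-mutant clones #7, #9 and #11 and Neil2-mutant clones #1, #11 and #14 had received 2 guides for their gene, and all were selected with puromycin after a puromycin resistance plasmid was added. The Apex1 mutant was 1 clone, #46, with technical duplicates at each stage, so its p-values speak of that clone and not of the genotype. EBs and EBs + RA of a clone came from 1 culture that was split at day 4, and the same clones recur at each stage. In such bulk samples, fewer cells of a type and less RNA per cell cannot be told apart.

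A DNA glycosylase finds a damaged or mispaired base and cuts it from the sugar, and the abasic site that remains is passed to the endonuclease APEX1, a polymerase and a ligase. UNG and SMUG1 remove uracil, TDG and MBD4 remove thymine or uracil opposite guanine, and TDG also removes formylcytosine and carboxylcytosine in active DNA demethylation. OGG1 removes 8-oxoguanine, MUTYH removes adenine opposite 8-oxoguanine, and NTHL1 and the NEIL proteins remove oxidized bases and can also cut the DNA strand. RA drives EBs towards neural cell types.

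The guides show which part of each targeted gene was to be removed, and so what a count over the gene can and cannot measure. They are printed with the genomic bases of the PAM in capitals, and each was placed on NCBIM37 by exact match. The Neil1 guides lie at chr9:56995167-56995186, in an intron, and chr9:56994583-56994602, in an exon, both on the minus strand.
Neil1 guide 1: gggaggaacaggtttgtaagTGG
Neil1 guide 2: gatgtcaggatccttccagcTGG
The Neil2 guides lie at chr14:63810934-63810953 and chr14:63810347-63810366 on the minus strand, both in introns.
Neil2 guide 1: gctgtgtggttaaggctgagGGG
Neil2 guide 2: gctgtgaagaatgtctgaaaAGG
The Apex1 guides lie at chr14:51546000-51546020 and chr14:51546586-51546605 on the plus strand, both in exons, and the second has 2 exact sites with a PAM in the genome.
Apex1 guide 1: gtgcccgctaaaagtctcttaTGG
Apex1 guide 2: aagatccggtccaaggctctTGG
A deletion between the cuts would take 279 of 1688 exon bases of Neil1 (16.5%, 1 of 10 merged exons), 154 of 1932 of Neil2 (8.0%, 1 of 5) and 483 of 1422 of Apex1 (34.0%, 2 of 4). Most exon bases of each gene would remain, so the level of a targeted gene is not a measure of its deletion. For Apex1, reads over the 61.7% of exon bases that are shared with Tmem55b may also go uncounted.

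Library totals on genes lay between 21523742 and 48350904 counts. The markers followed the stage labels in the control clones: all 7 pluripotency markers tested were lower in EBs + RA than in EBs, and all 6 RA response and 5 neural markers were higher. The gene of the Apex1 label went the other way from a loss, with 56.5 to 86.2 CPM (the count scaled to library size, with TMM factors) in the 6 libraries labelled Apex1 and 4.44 to 22 in all others. In the annotation 61.7% of its exon bases are shared with Tmem55b, and the count does not measure the deletion. The mESC library labelled Neil1 clone #11 had no count on 360 of 535 X-linked genes that had at least 10 counts in each control mESC library. The same clone had 0 (EBs) and 4 (EBs + RA) of the 535 without a count, and every other library 0 to 3, so the gap stood in that 1 library. None of the 10 genes lies on chromosome X. Along chromosome 9, which carries Neil1, the same clone had median log2 differences from the controls of −0.25 in mESCs (616 genes), −0.29 in EBs (594 genes) and −0.33 in EBs + RA (629 genes), whereas the other Neil1-mutant libraries lay between −0.06 and 0.05.

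The first question was which glycosylase transcripts were most abundant in the control clones. Levels between genes were compared as CPM per kilobase of merged exons, as a mean ± SD of the 3 control clones. By this measure the uracil glycosylase Ung led in control mESCs with 40.9 ± 3.72, above every value of Tdg at 31.2 ± 4.63. Nthl1, which acts on oxidized pyrimidines, followed at 25.7 ± 4.09 and overlapped with Tdg. These 3 genes made up 29.2%, 22.3% and 18.4% of the summed level of the 10 genes. Mutyh stood next at 10.1 ± 0.599, apart from its neighbours. Mbd4 (6.79 ± 0.585), Ogg1 (6.12 ± 0.957), Neil2 (5.90 ± 2.59) and Smug1 (5.52 ± 0.679) each overlapped with the next gene in the order, which after Smug1 was Neil1 (5.35 ± 0.724). Neil3 was lowest at 2.36 ± 0.585 and did not overlap with Neil1. The pair of targeted glycosylases thus made up 3.82% (Neil1) and 4.22% (Neil2) of the summed transcript level, which does not measure protein or activity. Mpg, the DNA glycosylase for alkylated purines, was not among the 10 and had 2.71 CPM per kilobase.

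Some of these levels carry a counting limit. Of the 51-base windows along Tdg exons only 51.0% are unique in the genome, so its reads at the other windows could be set aside as not uniquely aligned, and its level per kilobase is a low estimate. For the other 9 genes the share was 94.3% (Neil3) to 100%. The annotation also has Ogg1 sharing 11.4% of its exon bases with Camk1, and Tdg sharing 6.8% with Glt8d2. The longest transcript has 3502 bases for Tdg, against 5374 in merged exons, and 2136 for Ung, against 2566. The lead of Ung over Tdg and the shares of the summed level therefore depend on the length used. With the low estimate for Tdg, the order of these 2 genes is not settled.

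**Figure D1:**
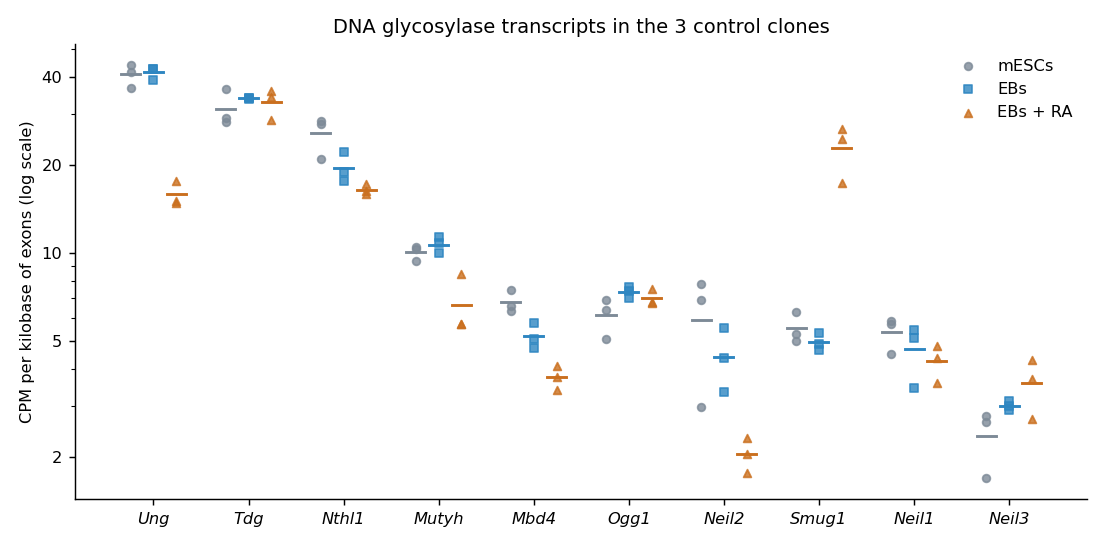
Level of each gene in the control clones (vertical axis, CPM per kilobase of merged exons, log scale) in mESCs, EBs and EBs + RA, with 1 point per clone and a line at the mean. Smug1 stands higher and Ung lower in EBs + RA than at the other stages, from 5.52 to 22.9 and from 40.9 to 15.9 between mESCs and EBs + RA.

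Differentiation of the control clones was compared next, by the quasi-likelihood test of edgeR, adjusted by Benjamini-Hochberg over all genes tested. A gene was called when its FDR was below 0.1 and its log2 fold change beyond 0.5 in either direction. From mESCs to EBs 0 of the 10 genes were called, where 38.5% of all 16557 genes tested were. Without adjustment 2 of the 10 had a p below 0.05, and DESeq2 also called 0. The median log2 fold change of the 10 was −0.07, against −0.01 over all genes. Mbd4 had 37.6, 33.4 and 32 CPM in mESCs and 29.1, 24 and 25.6 CPM in EBs. Its log2 fold change was −0.39 ± 0.14 (SE, FDR 0.0375), inside the limit on fold change. Nthl1 had −0.40 ± 0.15 (SE, FDR 0.0603), also inside that limit, and was called without control mESC clone #7 (−0.52, FDR 0.00996).

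Retinoic acid was the step at which glycosylases were called. From EBs to EBs + RA 4 of 10 were called, 1 higher and 3 lower, in a comparison in which 43.1% of all genes were called, so the share is near the background. Their median log2 fold change was −0.20, against 0.00 over all genes. From mESCs to EBs + RA 7 of 10 were called, 2 higher and 5 lower, beside 60.3% of all genes.

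Smug1, which removes uracil and oxidized pyrimidines, rose most among the 10. It had 15.1, 15.8 and 17.2 CPM in control EBs #1, #4 and #7, and 79.4, 86.1 and 56.1 CPM in the EBs + RA of the same clones. Every RA-treated library lay above every other control library, by 5.27-, 5.45- and 3.27-fold within the clones. The log2 fold change was 2.19 ± 0.17 (SE, FDR 1.63e-06), and Smug1 moved from place 7 to place 2 in the order of levels per kilobase.

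Ung, the other enzyme for uracil, went the opposite way. Its 109.4, 109.9 and 100.8 CPM in control EBs became 38, 45.5 and 38.9 CPM with RA, with no overlap. The log2 fold change was −1.4 ± 0.12 (SE, FDR 3.13e-06). In EBs + RA Ung no longer led the order. Its mean of 15.9 ± 1.6 CPM per kilobase was below the means of Tdg (32.9 ± 3.80) and Smug1 (22.9 ± 4.86). Its values of 14.8 to 17.7 overlapped there with Nthl1 (16.5 ± 0.661) and with the 17.4 to 26.6 of Smug1.

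The promoters of both genes, which moved in opposite directions, are shown for their sequence context. They are RefSeq promoters of GRCm38.p6, from 250 bases before to 50 after the start, at chr15:103163235-103163534 on the minus strand (Smug1) and chr5:114130185-114130484 on the plus strand (Ung).
Smug1: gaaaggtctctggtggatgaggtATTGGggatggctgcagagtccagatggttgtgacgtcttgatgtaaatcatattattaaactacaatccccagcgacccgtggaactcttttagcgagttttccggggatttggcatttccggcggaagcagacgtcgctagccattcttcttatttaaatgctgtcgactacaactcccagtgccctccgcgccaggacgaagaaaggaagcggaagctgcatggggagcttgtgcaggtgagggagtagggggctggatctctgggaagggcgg
Ung: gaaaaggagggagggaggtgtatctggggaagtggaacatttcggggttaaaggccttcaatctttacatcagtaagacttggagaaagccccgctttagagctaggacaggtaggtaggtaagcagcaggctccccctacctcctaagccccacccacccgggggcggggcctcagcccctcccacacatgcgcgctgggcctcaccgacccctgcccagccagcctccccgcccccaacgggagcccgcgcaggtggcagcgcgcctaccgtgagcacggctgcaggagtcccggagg
Capitals mark matches, on either strand, to CCAAT, the core of the CCAAT box, or to AGGTCA, a site bound by nuclear receptors such as the RA receptors. Smug1 has 1 match, to CCAAT, and Ung has 0. Among all 32851 promoters, 37.4% hold CCAAT and 16.3% hold AGGTCA. Among the 9 of 10 genes with an entry, 6 hold CCAAT (Mbd4, Mutyh, Nthl1, Ogg1, Smug1 and Tdg) and only Mutyh holds AGGTCA. These matches describe letters and do not show binding.

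Neil2 fell with RA from 6.45, 8.45 and 10.7 to 3.40, 3.96 and 4.50 CPM, a log2 fold change of −1.12 ± 0.33 (SE, FDR 0.0168). Mutyh, which guards against the mispairing of 8-oxoguanine, fell from 26, 28.1 and 29.6 to 15.0, 22.1 and 14.9 CPM, by −0.70 ± 0.17 (SE, FDR 0.00477). The libraries of the 2 stages did not overlap for either gene. Set against mESCs, Mbd4 (−0.87 ± 0.14, FDR 0.00016) and Nthl1 (−0.66 ± 0.16, FDR 0.00288) were also called lower in EBs + RA, and Neil3 was called higher (0.58 ± 0.22, FDR 0.0349). The Neil3 call was lost without control mESC clone #7 (log2 fold change 0.39, FDR 0.0934) or without control EBs + RA clone #4 (0.43, FDR 0.132). Tdg, Ogg1 and Neil1 were called at no step in the controls. Tdg had 151.0, 155.9 and 196.3 CPM in mESCs, 182.3, 181.9 and 182.2 in EBs and 192.8, 183.6 and 153.7 in EBs + RA.

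Of all genes tested, 21.1% were called lower and 22% higher from EBs to EBs + RA. Of the 16 genes that act in BER after the glycosylase, 4 were called lower and 0 higher. They included Polg, the mitochondrial DNA polymerase (−1.24 ± 0.12, FDR 9.69e-06), and Parp1, a sensor of strand breaks (−0.93 ± 0.11, FDR 4.78e-05). Of 15 markers of S phase and mitosis, 7 were called lower and 0 higher, and their summed level was 5075 to 5320 CPM in control EBs and 3419 to 3971 CPM in control EBs + RA. The part of cell division in the lower Ung, Mutyh and Neil2 levels was not tested.

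The second question was whether the loss of one glycosylase was met by higher levels of the others. In mESCs 0 of 10 genes were called in the Neil1-mutant clones (1.82% of all genes) and 0 of 10 in the Neil2-mutant clones (1.83%). Without adjustment, 2 of 10 in each had a p below 0.05. DESeq2 called 1 of 10 in the Neil1-mutant clones, Mbd4, and 0 in the Neil2-mutant clones. Mbd4 had 26.3, 22 and 24.3 CPM in the Neil1-mutant mESCs, all below the control clones, with a log2 fold change of −0.52 ± 0.14 (SE, FDR 0.137). Neil2 had 8.84, 3.71 and 7.34 CPM in Neil1-mutant mESCs and 15.2, 13.3 and 5.74 CPM in the controls, and these overlapped. Neil1 had 12.0, 13.4 and 11.5 CPM in Neil2-mutant mESCs against 9.85, 9.61 and 7.62 in the controls. All 3 lay above the controls, by a log2 fold change of 0.42 ± 0.17 (SE, FDR 0.283) that was not called. The libraries of this stage were spread widely. Control mESC clone #7 had a chi-squared per degree of freedom of 61.3 against #1 and 62.1 against #4, which had 9.55 between them. Neil1-mutant mESC clone #11 had 94.3 against #7 and 94.3 against #9. These values are over genes of all chromosomes, and this library of clone #11 is the one with the gap on X-linked genes. A missing call at this stage can be limited by that spread, which was not measured for the 10 genes alone. Calls made without control clone #7 are given below.

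In EBs 1 of 10 genes was called in the Neil1-mutant clones, where 23.5% of all genes were, and 0 of 10 in the Neil2-mutant clones, where 16.3% were. No gene of the 10 reached an unadjusted p below 0.05 in the latter, and DESeq2 called 0 in both. The called gene was Neil1, with 6.06, 1.38 and 3.09 CPM in Neil1-mutant EBs and 5.80, 9.19 and 8.66 CPM in control EBs. The clones overlapped, since Neil1-mutant clone #7 lay above control clone #1. Its fall rested on the choice of libraries: the FDR of 0.0869 rose to between 0.119 and 0.256 without Neil1-mutant clone #9 or #11 or without control clone #4 or #7. The fewest counts behind a value of any of the 10 genes were here, 34 in 1 library.

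Ung was higher in all 3 Neil1-mutant EBs, with 140.9, 149.3 and 143.0 CPM. The log2 fold change of 0.44 ± 0.08 (SE, FDR 0.00205) passed the FDR limit but not the limit on fold change. The Neil2-mutant EBs had 90.1, 146.4 and 166.4 CPM of Ung, which overlapped with the controls. Clone #1 was the low one of these, and was also the high one for Neil2, with 17.9 CPM against 6.61 and 9.37 CPM in the other Neil2-mutant EBs.

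Markers differed in these EBs as well. Of the 7 pluripotency markers 6 were higher in the Neil1-mutant and 5 in the Neil2-mutant EBs, with sums of 2880 to 3317 and 2244 to 3496 CPM against 1912 to 2047 CPM in the controls. Of 5 mesoderm, muscle and blood markers tested, 4 and 3 were lower, with sums of 28.3 to 48.5 and 33.4 to 43.0 CPM against 192.5 to 278.9 CPM. The embryonic globin Hba-x had no count in either mutant. Of the 7 endoderm markers and of the 15 markers of S phase and mitosis, 0 were called in either. The part of cell makeup in the Neil1 and Ung values was not tested.

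**Figure D2:**
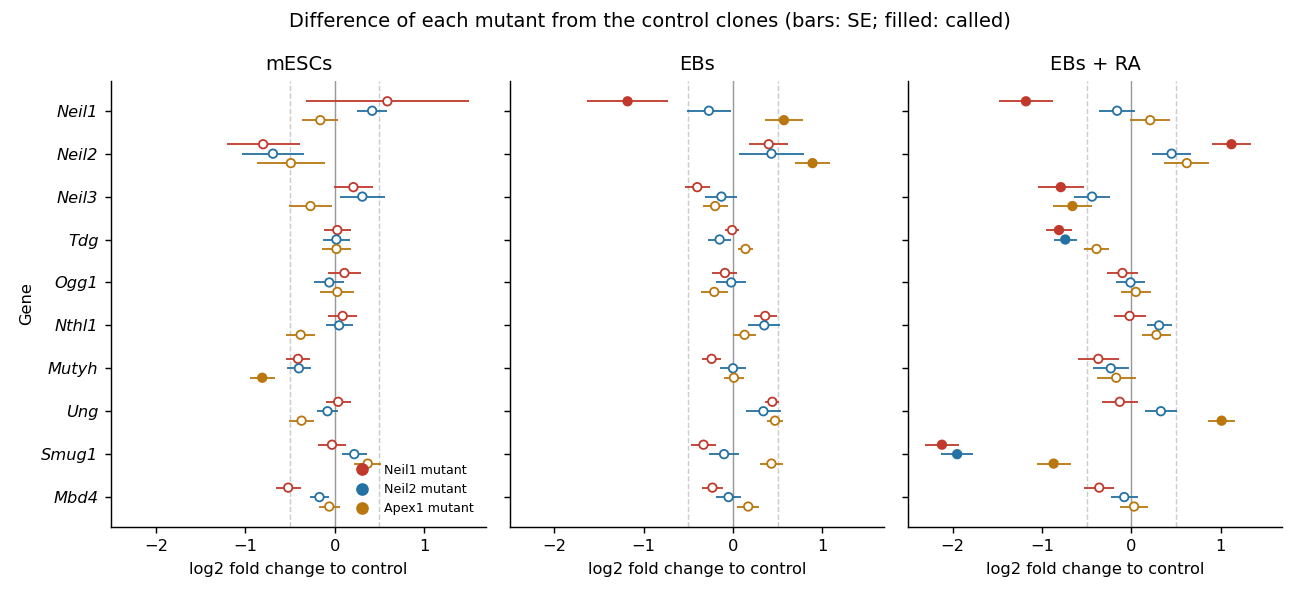
Log2 fold change of each gene in each mutant to the control clones of its stage (horizontal axis), with bars for the SE, filled points for calls and dashed lines at the limit on fold change. Among the mESC comparisons only Mutyh in the Apex1-labelled clone is filled, and in EBs + RA Smug1 is filled in all 3 genotypes, at −2.12, −1.95 and −0.87.

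RA-treated EBs held most of the differences. Of the 10 genes 5 were called in the Neil1-mutant clones, 1 higher and 4 lower, beside 41.1% of all genes. In the Neil2-mutant clones 2 were called, both lower, beside 34.9% of all genes. The median log2 fold change of the 10 was −0.37 and −0.12, against 0.00 and 0.01 over all genes. The summed level of the 10 genes was 103.9 to 125.4 CPM per kilobase in the control EBs + RA, 68.0 to 82.8 in the Neil1-mutant and 83.8 to 93.5 in the Neil2-mutant clones.

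Smug1 was the member with the largest difference in both mutants. It had 18.1, 17.4 and 15.1 CPM in Neil1-mutant and 21.3, 17.3 and 18.1 CPM in Neil2-mutant EBs + RA, where the controls had 79.4, 86.1 and 56.1. No mutant library reached the controls, and the mutants lay near the level of EBs without RA. The log2 fold changes were −2.12 ± 0.19 (SE, FDR 0.000238) and −1.95 ± 0.18 (SE, FDR 0.000401). Within the mutant clones RA changed Smug1 by 1.21- to 1.36-fold.

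Whether the mutant's difference itself changed with RA was tested by the interaction of genotype and treatment. Smug1 was called there in the Neil1-mutant (−1.78 ± 0.23, FDR 0.000255) and the Neil2-mutant clones (−1.86 ± 0.25, FDR 0.000421), in tests that called 29.6% and 15% of all genes. Of the 10 genes 3 were called in the former and 2 in the latter.

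Tdg, the demethylation enzyme, was the other gene called lower in both. It had 113.5, 93.0 and 94.0 CPM in Neil1-mutant and 93.4, 109.0 and 111.3 CPM in Neil2-mutant EBs + RA, all below the 153.7 to 192.8 CPM of the controls. The log2 fold changes were −0.81 ± 0.15 (SE, FDR 0.00441) and −0.74 ± 0.13 (SE, FDR 0.00403). In EBs without RA the Neil1-mutant clones had 195.9, 164.6 and 181.5 CPM, which overlapped with the 181.9 to 182.3 CPM of the controls. The Neil2-mutant EBs had 139.0, 175.0 and 172.8 CPM, all below the controls, with no call (−0.15 ± 0.13, FDR 0.496). The interaction was called in the Neil1-mutant (−0.78, FDR 0.00547) and the Neil2-mutant clones (−0.60, FDR 0.0467). In the latter it was lost in 5 of 12 fits that left out 1 library, those without control EBs #4, Neil2-mutant EBs #14, control EBs + RA #1 or #4, or Neil2-mutant EBs + RA #1, with values of −0.70 to −0.49 over the 12.

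Neil2 was higher in the Neil1-mutant EBs + RA, with 9.20, 8.33 and 8.08 CPM against 3.40, 3.96 and 4.50 CPM. Its log2 fold change of 1.12 ± 0.22 (SE, FDR 0.00661) made it the only one of the other 9 genes that was called higher in a Neil1- or Neil2-mutant comparison. These levels were near those of Neil1-mutant EBs without RA (9.31, 10.2 and 14.0 CPM), while the controls had fallen. The interaction was 0.74 ± 0.32 (SE, FDR 0.108) and not called, and with the clone as a block it was called at 0.74 (FDR 0.065). In the reverse case, Neil1 had 5.96, 6.31 and 6.77 CPM in Neil2-mutant EBs + RA and 6.05, 7.39 and 8.12 CPM in the controls, which overlapped. Higher Neil2 in EBs + RA was not particular to the Neil1-mutant clones. Without a call, it also lay above the controls in the Neil2-mutant clones (0.45 ± 0.22, FDR 0.154). The same held for the Apex1 duplicates, with 5.05 and 6.84 CPM (0.62 ± 0.25, FDR 0.123).

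The targeted genes themselves did not move one way at every stage. In Neil1-mutant mESCs #7, #9 and #11, Neil1 had 31.5, 2.48 and 7.37 CPM, against 9.85, 9.61 and 7.62 CPM in the controls. Clone #7 lay above every control and the other 2 below, with no call (0.59 ± 0.91, FDR 0.816). In Neil2-mutant mESCs, Neil2 had 5.50, 9.54 and 6.40 CPM, which overlapped with the controls and was not called (−0.69 ± 0.35, FDR 0.397). With RA, Neil1 had 4.34, 2.18 and 2.95 CPM in Neil1-mutant EBs + RA, all below the controls (−1.18 ± 0.30, FDR 0.018). Neil2 had 5.85, 5.26 and 4.86 CPM in Neil2-mutant EBs + RA, all above the controls, with no call (0.45 ± 0.22, FDR 0.154). Neil3 had 10.3, 13.9 and 8.28 CPM in the Neil1-mutant clones, below the 14.3 to 22.8 CPM of the controls (−0.79 ± 0.26, FDR 0.0422). This call was lost without control clone #1 (FDR 0.121) or #4 (FDR 0.148). Over 34 genes within 10 Mb of Neil3, these clones had median log2 differences from the controls of −0.17, −0.31 and −0.36. Within 5 Mb, over 5 genes, the medians were 0.37, −0.02 and −0.07. The part of dosage in the Neil3 values was not tested.

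**Figure D3:**
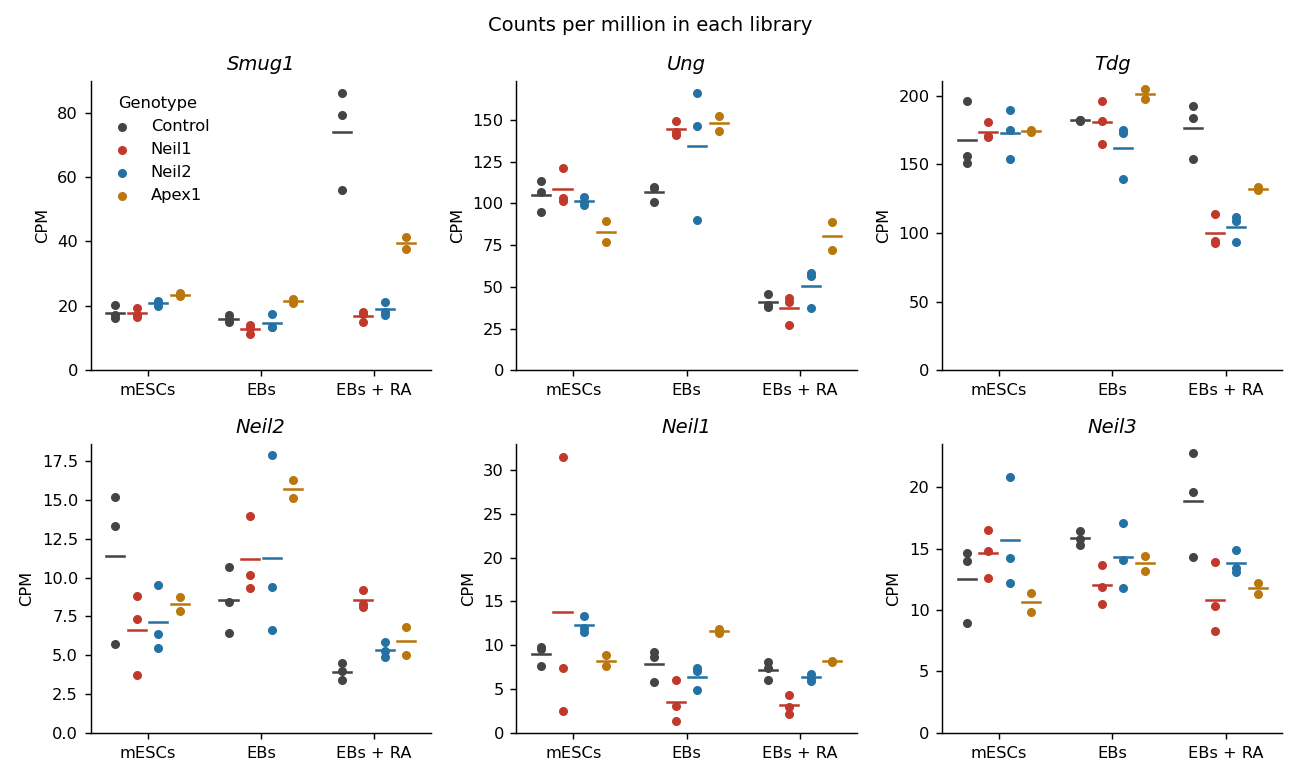
CPM of 6 genes in every library (points) by stage and genotype, with a line at the group mean; the Apex1 points are technical duplicates of 1 clone. Smug1 in EBs + RA shows the control clones at 56.1 to 86.1 CPM, the Neil1- and Neil2-mutant clones at 15.1 to 21.3 and the Apex1 duplicates at 37.7 and 41.4.

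Marker genes moved with these differences. All 5 neural markers tested were lower in the EBs + RA of both mutants. Their summed level was 258.7 to 445.0 CPM in the controls, 35.2 to 49.0 in the Neil1-mutant and 36.7 to 45.8 in the Neil2-mutant clones, and no marker was at 0 throughout any EBs + RA group. Nes, a filament of neural progenitors, had a log2 fold change of −2.81 ± 0.30 (FDR 0.000469) and −2.61 ± 0.14 (FDR 0.000158). Of the 7 pluripotency markers, 5 were higher and 1 lower in the Neil1-mutant clones, and 6 were higher in the Neil2-mutant clones. Of the 7 endoderm markers, 4 were higher in the Neil1-mutant clones, with a summed level of 400.4 to 863.7 CPM against 145.8 to 453.0 CPM in the controls. In the Neil2-mutant clones 0 of the 7 were called, at 134.2 to 490.7 CPM. Among the mesoderm, muscle and blood markers, 2 were higher and 1 lower of 4 tested in the Neil1-mutant clones, and 3 higher and 1 lower of 5 tested in the Neil2-mutant clones. Their sums were 18.4 to 20.0 and 20.0 to 29.7 CPM, beside 21.6 to 24.3 CPM in the controls. Of the 6 RA response markers, 2 were higher and 1 lower in the Neil1-mutant and 3 higher and 1 lower in the Neil2-mutant clones. Their sums were 2253 to 2633 and 2461 to 3842 CPM, above the 1184 to 1732 CPM of the controls. Of all genes tested, 19.9% were called lower in the Neil1-mutant and 16.6% in the Neil2-mutant EBs + RA. Of the 15 markers of S phase and mitosis, 10 were lower in the Neil1-mutant and 4 in the Neil2-mutant clones, with 0 higher. Their summed level was 3419 to 3971 CPM in the controls, 1962 to 2773 and 2505 to 3213. The part of cell makeup and cell division in the Smug1, Tdg, Neil3 and Neil2 values was not tested.

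The genes downstream of the glycosylase gave a similar count. Of 16, 7 were lower and 1 higher in the Neil1-mutant EBs + RA, beside 41.1% of all genes called. In the Neil2-mutant EBs + RA 3 were lower and 1 higher, beside 34.9% of all genes called. The higher one was Polg in both, by 1.21 ± 0.18 (FDR 0.00212) and 0.83 ± 0.15 (FDR 0.00496). Apex1, most of whose exon bases are shared with Tmem55b, was lower in both, with log2 fold changes of −1.24 ± 0.26 (FDR 0.00838) and −1.21 ± 0.19 (FDR 0.00283). Its paralog Apex2 had −0.70 (FDR 0.0158) and −0.50 (FDR 0.0662). Of the 5 TET and GADD45 genes, Tet3, which oxidizes methylcytosine, was lower, at −1.08 (FDR 0.00216) and −1.39 (FDR 0.000662), and Gadd45b was higher, at 1.51 (FDR 0.000488) and 1.4 (FDR 0.00146). The mutants share their controls, so these values are side by side and not independent.

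Neil1- and Neil2-mutant clones were also compared directly. In mESCs, EBs and EBs + RA 0 of the 10 genes were called, as were 0% (mESCs), 0% (EBs) and 0% (EBs + RA) of all genes. Without adjustment, 1, 0 and 2 of the 10 had a p below 0.05, and DESeq2 called 0 of the 10. At that value of p stood 915, 735 and 1608 of all genes. In EBs + RA, Neil2 was higher in each Neil1-mutant than in each Neil2-mutant library (0.70 ± 0.20, FDR 0.486), and Neil1 lower (−0.98 ± 0.29, FDR 0.486). A missing call does not show that the mutants are alike.

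The last question concerned APEX1, the endonuclease that follows the glycosylases. In the Apex1-labelled clone 1 of 10 genes was called in mESCs, 2 in EBs and 3 in EBs + RA, beside 16.9%, 25.8% and 24.8% of all genes. The clone and the genotype cannot be told apart. Mutyh was lower in mESCs, with 16.3 and 14.3 CPM against 24.6, 27.5 and 27 CPM (−0.81 ± 0.14, FDR 0.0279). This was lost when the duplicates were summed to 1 sample (FDR 0.324). In that fit the clone is counted once, the spread comes from the control clones alone, and the lone sample is assumed to vary as they do.

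In EBs, Neil2 was higher with 15.1 and 16.3 CPM (0.89 ± 0.20, FDR 0.00747), as was Neil1 with 11.4 and 11.9 CPM (0.57 ± 0.21, FDR 0.0563). The Neil1 call was lost with the duplicates summed (FDR 0.214). In these EBs 6 of 7 endoderm markers were lower (sum 55.0 to 67.1 CPM, controls 228.7 to 440.0), as were 4 of 5 mesoderm, muscle and blood markers (97.2 to 109.4 CPM, controls 192.5 to 278.9). Of the pluripotency markers 5 of 7 were higher (3361 to 3524 CPM, controls 1912 to 2047), and Hbb-y and Neurog2 had no count. In EBs + RA, Ung had 88.8 and 72.2 CPM, above the 38 to 45.5 CPM of the controls, by 1.01 ± 0.15 (FDR 0.00353). Smug1 had 37.7 and 41.4 CPM, between the controls and the Neil-mutant clones, at −0.87 ± 0.19 (FDR 0.0171). Neil3 had 11.3 and 12.2 CPM, at −0.66 ± 0.22 (FDR 0.0716). With the duplicates summed, the Smug1 (FDR 0.133) and Neil3 (FDR 0.28) calls were lost. Ung had 0.99 (FDR 0.0404) there and Neil2 in EBs 0.89 (FDR 0.0633), which rest on the same assumed spread. All 5 neural markers tested were lower in these EBs + RA too, with a summed level of 65.5 to 72.8 CPM, whereas 0 of the 15 markers of S phase and mitosis were called. The part of cell makeup in these values was not tested. Leaving out either duplicate also ended the Mutyh, Neil1, Neil3 and Smug1 calls, as did leaving out control clone #4 for Mutyh (FDR 0.112), #1 for Neil1 (FDR 0.135), and #1 (FDR 0.186) or #4 (FDR 0.187) for Neil3.

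The interaction tests gave 3 of 10 genes between EBs and mESCs in this clone, beside 26.6% of all genes, and 3 of 10 between EBs + RA and EBs, beside 15.7%. Between EBs and mESCs these were Ung (0.80, FDR 0.00586), Mutyh (0.79, FDR 0.00808) and Neil2 (1.34 ± 0.47, FDR 0.0642), of which Neil2 was lost with the number as a block (1.28, FDR 0.153). Between EBs + RA and EBs they were Smug1 (−1.31 ± 0.23, FDR 0.00379), Tdg (−0.54, FDR 0.0394) and Ung (0.53, FDR 0.0672). The corresponding tests between EBs and mESCs called 0 of 10 in the Neil1-mutant (10.1% of all genes) and 0 of 10 in the Neil2-mutant clones (10.2%). Without adjustment, 3 and 1 of 10 had a p below 0.05, and DESeq2 called 0.

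**Figure D4:**
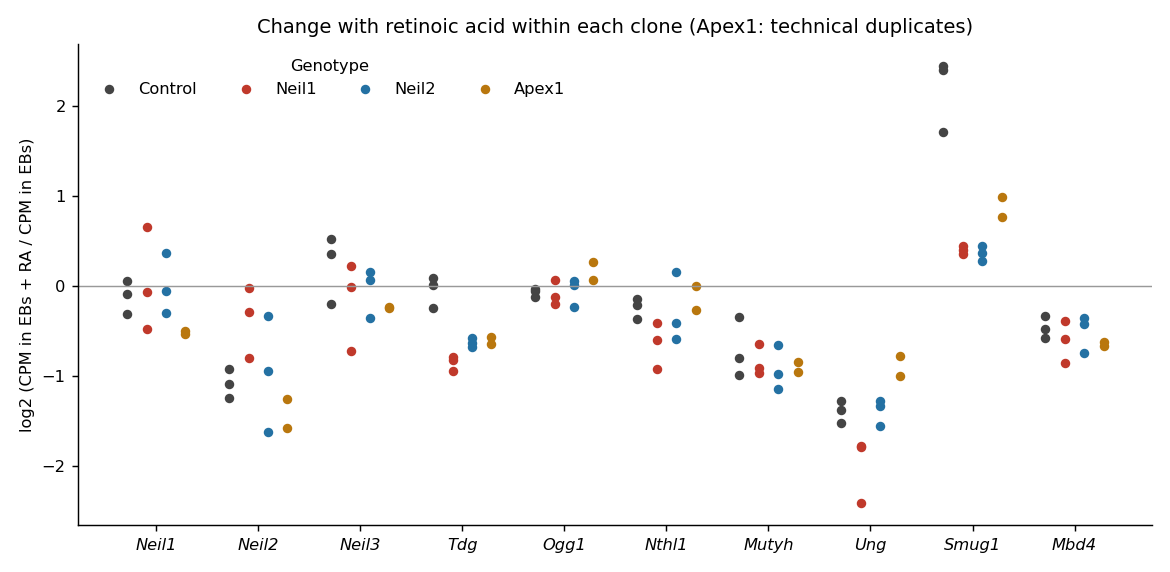
Log2 ratio of CPM in EBs + RA to CPM in EBs within each clone (vertical axis), with 1 point per clone and, for Apex1, per technical duplicate. Smug1 rose 3.27- to 5.45-fold in the control clones and 1.21- to 1.36-fold in the Neil1- and Neil2-mutant clones, and Ung fell in every clone.

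Ogg1 and Nthl1, which share the removal of oxidized bases with the NEIL proteins, were called in no mutant at any stage at the limits used here. Ogg1 ranged from 10.3 to 16.8 CPM over all 33 libraries, and Nthl1 from 15.3 to 33.4 CPM. In Neil1-mutant EBs Nthl1 had 25.0, 27.2 and 29 CPM, all above the 19, 24 and 20.5 CPM of the controls. Its log2 fold change of 0.36 ± 0.13 (SE, FDR 0.0557) passed the FDR limit but not the limit on fold change. In the Apex1-labelled mESCs Nthl1 was not called (−0.38, FDR 0.168), but it was called lower with the replicate block (−0.50, FDR 0.000273) and without control clone #7 (−0.50, FDR 0.000699). Mbd4, the partner of Tdg at mismatched guanine, was called in no mutant at these limits. In Neil1-mutant mESCs it was called lower with DESeq2 (−0.50, FDR 0.0411), with all 33 libraries in 1 fit (−0.50, FDR 0.0113) and without control clone #7 (−0.57, FDR 0.0601). Mpg was called in no comparison.

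The genes with the most similar pattern were taken by Pearson's r of log2 CPM over the 33 libraries, among the 14195 genes whose mean was 1 CPM or more. The libraries share clones and stages, so r is a description. Smug1 was closest to Ltbp1 (0.94) and Epha7 (0.93), Ung to Kirrel2 (0.96) and Ifitm1 (0.96), and Tdg to Matr3 (0.94) and Elavl2 (0.93). Mbd4 was closest to Bcl6b (0.95) and Rad1 (0.93), Nthl1 to Sod1 (0.93) and Cisd1 (0.89), and Mutyh to Rpl10a (0.92) and Acy1 (0.91). The NEIL genes had looser neighbours, with Ccdc64b (0.84) and Gm9873 (0.82) for Neil2, Rbl1 (0.78) and Slc18a2 (0.76) for Neil3, and Cela1 (0.75) and Asrgl1 (0.72) for Neil1. Ogg1 was closest to Ppil2 (0.74) and Rab1b (0.66).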

How the data were processed

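RNA of 33 libraries was made with the TruSeq RNA v2 kit and sequenced for 51 cycles. The authors aligned reads with TopHat2 version 2.0.9 and Bowtie2 version 2.1.0 (versions from the submitters' processing notes) to NCBIM37, and HTSeq version 0.5.4 gave the count of each gene. The deposited values are raw counts for 37991 Ensembl identifiers, of which 37205 are in the annotation of the same build used here. Lines that name no gene (21.8% to 30.4% of a library) were left out. Whether counting used strand is not given in the sources used here.

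Mutant and control clones of a stage were set against each other in edgeR version 4.0.16 (R version 4.3.3, limma version 3.58.1) with filterByExpr, TMM and the robust quasi-likelihood test, adjusted by Benjamini-Hochberg. Control stages shared 1 fit of 9 libraries, and interactions used both genotypes at both stages. Calls needed an FDR below 0.1 and a log2 fold change beyond 0.5, the limits of the study. DESeq2 version 1.42.0 was an alternative, as were RLE size factors, no filter, at least 10 counts in every library, other thresholds, all libraries in 1 fit, the replicate block, each library left out, and the Apex1 duplicates summed. The procedure was tested on simulated data. CPM are TMM-scaled, and log2 CPM used a prior count of 2. Dosage was the median log2 difference from the controls over genes with at least 5 CPM. Tables and figures used Python version 3.11.15, pandas version 2.3.3 and matplotlib, and the guides and promoters came from the study's supplement and RefSeq.

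The genes, lists and tests were chosen with earlier results of these data known. All 10 genes are reported in full, with Mpg, at most 3 called genes of each other list, and for each gene the 2 with the highest r. Of the neural list, Sox1 had no identifier here. Clones are separate cell lines of 1 parental line. The Apex1 p-values rest on the spread of the control clones and of the technical duplicates together, and hold no spread between Apex1-mutant clones. All 30 pairs of libraries within a group differed beyond sampling noise (chi-squared per degree of freedom 5.58 to 127), so none was a copy. The clone pairs the stages by its label. Deviations of the same clone at 2 stages correlated between −0.30 and 0.35. For EBs and EBs + RA, which came from 1 split culture, all were positive, from 0.16 to 0.35. The main fits did not use this pairing, and the fits with the clone as a block did.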

Additional observations from a re-analysis of the deposited data

Results flagged for a closer look

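The mutant's difference from the control changed for 11 combinations of gene, mutant and pair of stages, each flagged by the interaction test of edgeR. With RA these were 3 of 10 genes in the Neil1-mutant (29.6% of all genes), 2 in the Neil2-mutant (15%) and 3 in the Apex1-labelled clone (15.7%). Between EBs and mESCs they were 0 (10.1%), 0 (10.2%) and 3 (26.6%). Between EBs + RA and EBs the change was negative for Smug1 in the Neil1-mutant (−1.78), Neil2-mutant (−1.86) and Apex1-labelled clones (−1.31) and for Tdg in the same 3 (−0.78, −0.60 and −0.54). For Ung it was −0.55 in the Neil1-mutant and 0.53 in the Apex1-labelled clone. Between EBs and mESCs it was positive in the Apex1-labelled clone for Neil2 (1.34), Mutyh (0.79) and Ung (0.80). The 3 mutants share their controls, and the Apex1 values come from technical duplicates of 1 clone. Several of these calls rested on single libraries. The Ung change in the Neil1-mutant clones was lost in 9 of 12 fits that left out 1 library (−0.67 to −0.37), and was kept only without control EBs + RA #7 or Neil1-mutant EBs + RA #7 or #9. In the Apex1-labelled clone Ung between EBs + RA and EBs was lost in 7 of 10 such fits (0.37 to 0.67), all but those without control EBs #7, control EBs + RA #4 or the second EBs + RA duplicate. Neil2 was lost in 8 of 10 (1.08 to 1.66), all but those without clone #7 in control mESCs or EBs, and Tdg in 5 of 10 (−0.63 to −0.48), those without control EBs + RA #1 or any 1 duplicate. Smug1 was called in every fit that left out 1 library, in all 3 mutants.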

How the results depend on the processing

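Of the 36 calls of a glycosylase, 23 were made under every alternative run for them, among them Smug1 in the Neil1- and Neil2-mutant EBs + RA and both Smug1 and Ung in the controls with RA. The calls in Neil1-mutant EBs, 1 at the limits used, were 0 at an FDR of 0.05, with DESeq2, with the replicate block, with all 33 libraries in 1 fit and without a filter, and 4 with no limit on fold change. In Neil1-mutant mESCs, 0 became 1 with DESeq2 and with all 33 libraries. In the Apex1-labelled clone the 2 calls in EBs were 1 at an FDR of 0.05, 4 with no limit on fold change and 0 with all 33 libraries. The 1 call in mESCs was 3 with the replicate block, Mutyh, Neil2 (−0.80, FDR 7.68e-05) and Nthl1 (−0.50, FDR 0.000273). That block leaves control clone #7, number 3, out of each contrast of the controls with the Apex1 duplicates, numbers 1 and 2. With the duplicates summed, a fit whose spread comes from the controls alone, the calls were 0 in mESCs, 1 in EBs and 1 in EBs + RA. Control EBs against mESCs had 2 calls with no limit on fold change. When 1 library was left out, the calls ranged from 0 to 2 in Neil1-mutant mESCs, 0 to 1 in Neil1-mutant EBs, 0 to 1 in Neil2-mutant mESCs and in Neil2-mutant EBs, 0 to 3, 1 to 2 and 1 to 4 in the Apex1-labelled clone at the 3 stages, and 0 to 2 for control EBs against mESCs. Interaction calls ranged from 0 to 1 between EBs and mESCs in either Neil mutant, 1 to 2 with RA in the Neil2 mutant, 2 to 5 between EBs and mESCs and 1 to 3 with RA in the Apex1-labelled clone. Control mESC clone #7 decided the most of these: without it Neil2 was called lower in Neil2-mutant mESCs (−1.01, FDR 0.0197) and Mbd4 in Neil1-mutant mESCs (−0.57, FDR 0.0601). The causes were not tested.

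The mutant and control replicate numbers are only numbers (deviations correlated between −0.25 and 0.32), and the block changed no other call of a mutant against the controls than those given and Neil2 in the Apex1-labelled EBs + RA (0.71, FDR 0.0306). The Neil1 transcript in Neil1-mutant mESCs, 0.59 on the log2 scale, reversed to −0.09 with the replicate block and to −0.90 without Neil1-mutant clone #7, and was 1.09 without clone #9. Neil2 in Neil2-mutant EBs, 0.43, reversed to −0.10 without Neil2-mutant clone #1 and was 0.70 without clone #11. The summed level of the 10 genes in control mESCs, 140.0 CPM per kilobase, was 137.5 with library totals and 174.4 over the longest transcript. Dosage medians within 5 Mb passed 0.3 in 5 of 330 pairs of gene and library, and in 4 within 10 Mb. Within 5 Mb, 3 of these were for Neil3, over 5 genes, and 2 for Neil1 in Neil1-mutant clone #11. Within 10 Mb, 2 were for Neil3 and 2 for Neil1. The lowest count of any of the 10 genes was 34, and 3 clones per group limit the precision.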
